A study of Mus musculus with 12 samples.

Results

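Hcn2, Hcn3 and Hcn4 encode pore subunits of HCN channels, the hyperpolarisation-activated cation channels of neurons and of the cardiac pacemaker. They were taken by gene name from the count table, as 3 of its 54429 entries. RNA of brain punches from C57BL/6 mice had been sequenced in 12 libraries, and the labels give the tissue as cerebrum and the punched regions as BLA and VTA, abbreviations commonly used for the basolateral amygdala and the ventral tegmental area. The 4 groups held 3 libraries each: BLA of group-housed males, BLA of males socially isolated early in life, VTA of group-housed females, and VTA of females isolated in the same way. Sex is given by the design text, the labels give no age, and no transgene or drug is named for any group. Region and sex change together, so a difference between VTA and BLA cannot be told apart from one between females and males.

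HCN channels open when the membrane becomes more negative, and the inward current they carry, called Ih, brings the cell back towards its firing threshold. Cyclic AMP binds to a domain at the inner end of each subunit and makes opening easier, which ties the current to receptors that raise or lower cAMP. Subunits of the family assemble in groups, of one kind or mixed, and the mix sets the speed of opening and the response to cAMP. Ih is a familiar feature of many midbrain dopamine neurons, and Hcn2 RNA is also known from oligodendrocytes.

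The libraries held between 28278708 and 69276892 counts. VTA libraries held from 231 to 521 CPM of Slc6a3, which encodes the dopamine transporter, and BLA libraries 1.09 CPM or less. Levels are given as CPM, the usual scaling of counts to library size, here with TMM factors over all 12 libraries. For Slc17a7, which loads glutamate into vesicles in cortex-like neurons, the lowest BLA value was 449 CPM and the VTA values ran from 2.88 to 232 CPM. Some libraries stood apart within their group. Loci that collect reads of ribosomal RNA (Lars2, CT010467.1 and Gm15564) took from 18.6% to 41.8% of the counts in isolated BLA library 3 and in group-housed BLA libraries 1 and 2, and at most 1.57% in the others. Ttr, a choroid plexus gene, reached 205 and 3108 CPM in isolated VTA libraries 1 and 3, and no more than 4.24 CPM elsewhere. No label states that each library is a different animal or pool, and the p-values therefore describe only library-to-library spread, possibly technical in part.

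The 3 genes lie on different chromosomes (mm10, GENCODE M21 gene models). Hcn2 lies on chromosome 10 from 79716634 to 79736108 on the forward strand. Hcn3 lies on chromosome 3 from 89146074 to 89160196 on the reverse strand, and Hcn4 on chromosome 9 from 58823412 to 58863175 on the forward strand. An exon of Hcn3 overlaps an exon of Pklr, a pyruvate kinase gene on the opposite strand, but Pklr lay at or below 0.289 CPM in every library. All 3 genes passed the filter on low counts in each comparison, with between 162 and 8675 counts per library.

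RefSeq's promoter table (GRCm38.p6) matched 2 of the 3 genes by symbol. The 250 bases before the annotated start of Hcn2 and Hcn4 are shown because both genes had higher mean levels in the VTA libraries while their libraries spread differently. Capitals mark GC boxes (GGGCGG on either strand, the letters bound by Sp1-type factors).
Hcn2, chr10:79716384-79716633, forward strand: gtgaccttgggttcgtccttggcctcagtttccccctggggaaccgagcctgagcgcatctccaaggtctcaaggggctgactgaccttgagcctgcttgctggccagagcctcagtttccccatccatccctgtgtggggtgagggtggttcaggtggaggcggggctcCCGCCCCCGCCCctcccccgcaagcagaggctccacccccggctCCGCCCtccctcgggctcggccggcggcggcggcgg
Hcn4, chr9:58822699-58822948, forward strand: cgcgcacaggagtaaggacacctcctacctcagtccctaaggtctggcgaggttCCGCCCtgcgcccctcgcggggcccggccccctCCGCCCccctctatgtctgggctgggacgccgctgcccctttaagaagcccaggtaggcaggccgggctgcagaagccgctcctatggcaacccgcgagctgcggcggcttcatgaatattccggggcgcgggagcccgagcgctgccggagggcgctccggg

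Both stretches are rich in G and C, at 70.4% in Hcn2 and 71.2% in Hcn4, against a median of 52.4% over the 32851 promoters of the table. The Hcn2 stretch holds 3 GC boxes and the Hcn4 stretch 2, counts reached by 8.47% and 16.7% of promoters. At least 1 GC box occurs over the same length in 32.7% of all promoters. The dinucleotide CG occurs 16 times before Hcn2 and 25 times before Hcn4, a count reached by 25.4% and 10.7% of promoters. Neither stretch holds CCAAT (in 33.9% of promoters), TATAAA (12.4%) or TGACGTCA, the full cAMP response element (1.55%), on either strand. The RefSeq start of Hcn4 lies before the GENCODE start given above.

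Hcn3 was the member whose level separated the regions by the widest ratio. Its subunit forms slowly opening channels that respond little to cAMP. In group-housed BLA it lay at 12.6, 12.2 and 13.1 CPM in libraries 1, 2 and 3. In isolated BLA it lay at 11.7, 13.3 and 12.5 CPM. In group-housed VTA it lay at 17.1, 22.7 and 25.7 CPM, and in isolated VTA at 19.4, 20.7 and 16.3 CPM. Every VTA library was above every BLA library, and the BLA libraries were close together, with a coefficient of variation of 4.59% against 17.3% in VTA. The mean was 20.3 ± 3.52 CPM in VTA and 12.6 ± 0.576 CPM in BLA (SD, n = 6 libraries each), a log2 fold change of 0.69 (SE 0.10) or 1.61-fold. edgeR's quasi-likelihood test called it at a Benjamini-Hochberg adjusted p = 3.83e-05.

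Hcn4, the main subunit of the heart's sinus node and in the brain a subunit strong in thalamic neurons, was also higher in VTA. In group-housed BLA it lay at 10.1, 9.81 and 11.3 CPM in libraries 1, 2 and 3, and in isolated BLA at 7.46, 8.97 and 11.4 CPM. In group-housed VTA it lay at 12.1, 13.05 and 15.7 CPM, and in isolated VTA at 14.6, 15.7 and 12.1 CPM. The regions did not overlap, although the highest BLA library, at 11.4 CPM, came close to the lowest VTA library, at 12.1 CPM. The mean was 13.9 ± 1.67 CPM in VTA and 9.84 ± 1.49 CPM in BLA (SD, n = 6 libraries each), a log2 fold change of 0.50 (SE 0.11) or 1.41-fold (edgeR, Benjamini-Hochberg adjusted p = 0.00188).

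Hcn2 encodes a subunit with a strong response to cAMP. In group-housed BLA it lay at 67.8, 72.5 and 55.1 CPM in libraries 1, 2 and 3, and in isolated BLA at 81.7, 58.1 and 68.1 CPM. In group-housed VTA it lay at 58.3, 58.9 and 103 CPM, and in isolated VTA at 153, 85.9 and 99.5 CPM. The regions overlapped, since group-housed VTA libraries 1 and 2 lay within the BLA range while the other 4 VTA libraries lay above it. The mean was 93.1 ± 35.1 CPM in VTA and 67.2 ± 9.68 CPM in BLA (SD, n = 6 libraries each). The log2 fold change of 0.44 (SE 0.19) was not called by edgeR (Benjamini-Hochberg adjusted p = 0.0889), while DESeq2 called it at an adjusted p = 0.0267.

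**Figure D1:**
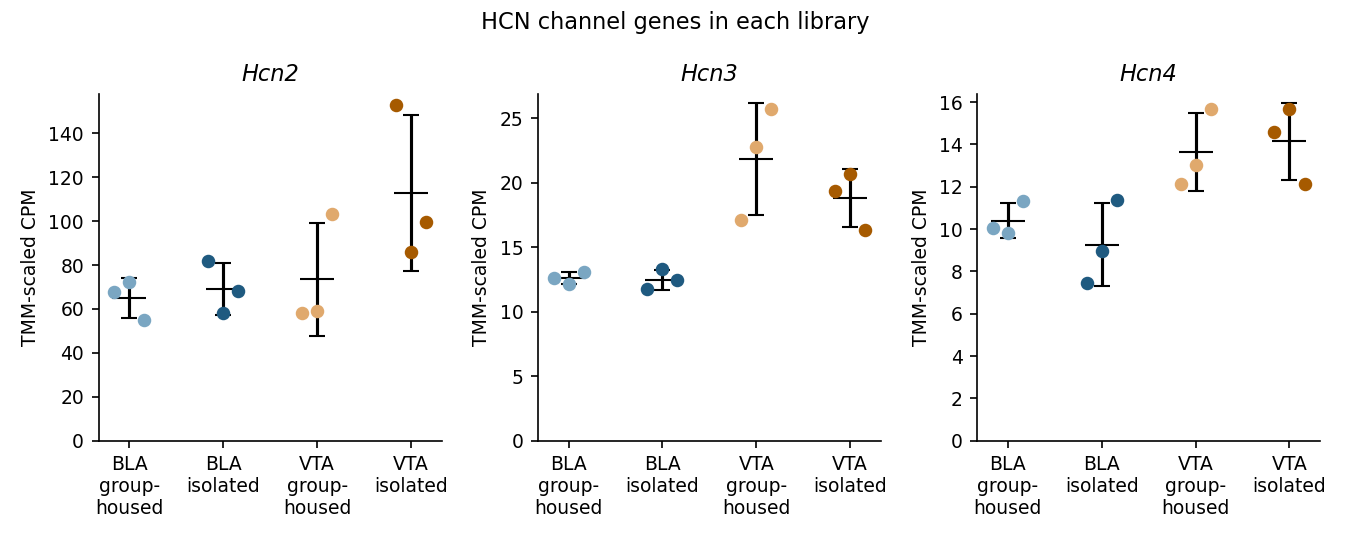
Levels of Hcn2, Hcn3 and Hcn4 in TMM-scaled CPM (vertical axis, from 0) in the 4 groups, with a point per library in replicate order and black bars for the mean and SD of 3 libraries. Hcn3 and Hcn4 lie higher in every VTA library than in every BLA library, and Hcn2 ranges from 58.3 to 153 CPM within VTA.

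Between VTA and BLA edgeR called 47.7% of the 25009 genes tested, 24.1% being higher and 23.7% lower in VTA, so a call of this kind is common in this comparison. Of the 3 members 2 were called, both higher in VTA. All VTA libraries lay above all BLA libraries at 14.1% of the genes, and at these 2 members, while the reverse order held at 12.9%. In bulk tissue, more cells that express a gene and more RNA per cell cannot be told apart. Hcn3 was called in all 20 alternatives tried (edgeR or DESeq2, Benjamini-Hochberg adjusted p from 7.92e-09 to 0.00704), as was Hcn4 (adjusted p from 0.000248 to 0.0452), which include leaving out each library and all 5 libraries that stand apart.

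The same contrast was also taken within each housing condition. Between group-housed libraries Hcn3 differed by 0.79 on the log2 scale (SE 0.15), Hcn4 by 0.38 (SE 0.14) and Hcn2 by 0.18 (SE 0.23). Between isolated libraries the differences were 0.59 (SE 0.12) for Hcn3, 0.61 (SE 0.17) for Hcn4 and 0.70 (SE 0.23) for Hcn2. edgeR called Hcn3 and Hcn4 in both conditions and Hcn2 in neither, at Benjamini-Hochberg adjusted p = 0.587 in group-housed and 0.0577 in isolated libraries. Whether these gaps differ with housing is the same question as whether the isolation responses differ between regions, and that test, given further on, called none of the 3.

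Ordered by mean level, Hcn3 ran from isolated BLA (12.5 ± 0.774 CPM) over group-housed BLA (12.6 ± 0.465 CPM) and isolated VTA (18.8 ± 2.25 CPM) to group-housed VTA (21.8 ± 4.34 CPM; SD, n = 3 libraries each). Only the step from BLA to VTA lay between ranges that did not overlap. Hcn4 ran from isolated BLA (9.27 ± 1.98 CPM) over group-housed BLA (10.4 ± 0.826 CPM) and group-housed VTA (13.6 ± 1.84 CPM) to isolated VTA (14.1 ± 1.83 CPM), and again only the step between the regions was free of overlap. Hcn2 ran from group-housed BLA (65.1 ± 9.0 CPM) over isolated BLA (69.3 ± 11.8 CPM) and group-housed VTA (73.5 ± 25.8 CPM) to isolated VTA (113 ± 35.4 CPM), and each neighbouring pair overlapped.

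In isolated against group-housed BLA none of the members was called, and each overlapped between the groups. The log2 fold changes were 0.10 (SE 0.14) for Hcn2, -0.01 (SE 0.12) for Hcn3 and -0.17 (SE 0.17) for Hcn4. edgeR called 0 of 22110 genes here (0%), with 439 at an unadjusted p under 0.05, while DESeq2 called 6. The groups were free of overlap at 4.15% of tested genes with isolated libraries higher and at 2.96% with them lower. For Hcn2, isolated library 1 held the highest value and group-housed library 3 the lowest, and without either the log2 fold change was -0.04 and -0.01. For Hcn4 the value ran from -0.35 without isolated library 3 to -0.04 without isolated library 1. Without the 3 libraries rich in ribosomal RNA, it was -0.47 (SE 0.24) for Hcn4 and 0.34 (SE 0.22) for Hcn2, neither called, with 1 group-housed library left and assumed to vary like the others.

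In isolated against group-housed VTA none of the members was called, and their fold changes had different signs. Hcn2 had a log2 fold change of 0.56 (SE 0.31), Hcn3 of -0.27 (SE 0.16) and Hcn4 of -0.00099 (SE 0.14), with edgeR, Benjamini-Hochberg adjusted p = 0.375, 0.372 and 0.998. Each member overlapped between the groups. edgeR called 1 of 24082 genes in this comparison (0.00415%), with 4408 at an unadjusted p under 0.05, while DESeq2 called 415. The groups were free of overlap at 17.4% of tested genes with isolated libraries higher and at 11.6% with them lower. The Hcn2 value rested on single libraries: it was 0.29 (SE 0.27) without isolated library 1, the highest at 153 CPM, and 0.87 (SE 0.25) without group-housed library 3, at 103 CPM. Without isolated libraries 1 and 3, the ones with choroid plexus RNA, it was 0.20 (SE 0.45), with 1 isolated library left and assumed to vary like the others. The Hcn3 value ran from -0.42 without group-housed library 1 to -0.15 without group-housed library 3.

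**Figure D2:**
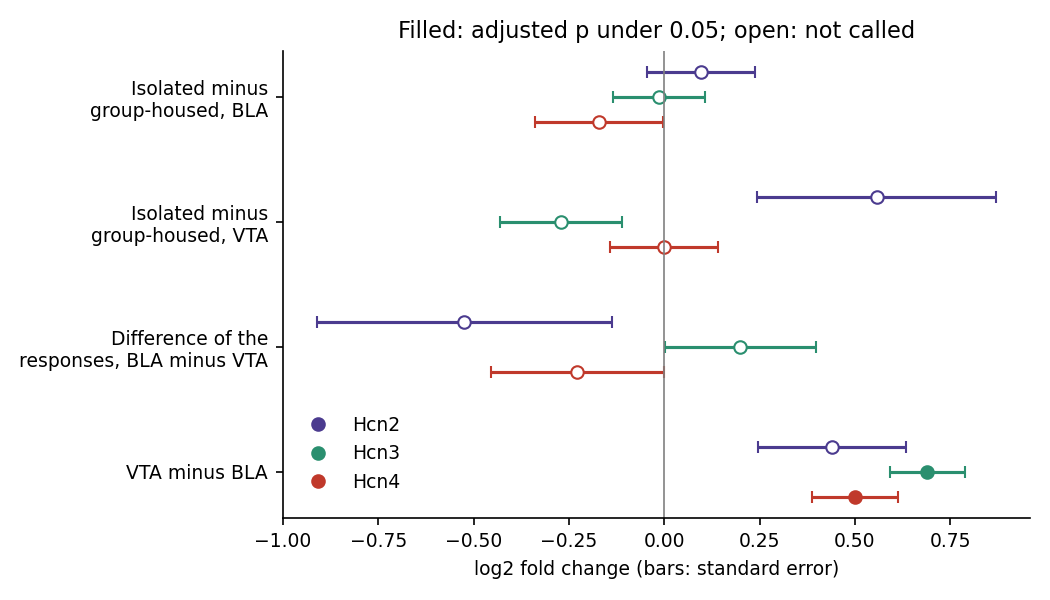
Log2 fold changes (horizontal axis) with standard errors for Hcn2, Hcn3 and Hcn4 in the 2 isolation comparisons, in the difference between them and in VTA minus BLA. Filled points passed an adjusted p of 0.05 (edgeR), as Hcn3 at 0.69 and Hcn4 at 0.50 did in VTA minus BLA, and open points did not.

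The isolation responses of BLA and VTA were set against each other in a single fit of all 12 libraries. The difference, BLA minus VTA, was -0.52 (SE 0.39) for Hcn2, 0.20 (SE 0.20) for Hcn3 and -0.23 (SE 0.23) for Hcn4 on the log2 scale. None was called (edgeR, Benjamini-Hochberg adjusted p = 0.524, 0.634 and 0.638), nor was any other of the 25009 genes (0%), with 3729 at an unadjusted p under 0.05 and 132 called by DESeq2. Without group-housed VTA library 3 the Hcn2 difference was -0.85, and without isolated VTA library 1 it was -0.24.

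Within VTA, though not across the regions, libraries with more Hcn2 also held more of the oligodendrocyte markers, apart from neighbours in the order that lay close together in both. The summed level of 8 such markers, genes of myelin and its cells that include Mbp, Mog and Mag, ranged from 6656 to 10935 CPM in group-housed VTA and from 9693 to 13152 CPM in isolated VTA. In BLA it ranged from 2724 to 4644 CPM in group-housed and from 3033 to 5469 CPM in isolated libraries. None of the 8 markers was at 0 in any group. In VTA the same pair, group-housed libraries 1 and 2, was lowest in both measures, with 6874 and 6656 CPM of markers beside 58.3 and 58.9 CPM of Hcn2. Isolated library 2 followed in both measures, with 9693 CPM of markers. Group-housed library 3 and isolated library 3 lay close together, with 10935 and 11008 CPM of markers beside 103 and 99.5 CPM of Hcn2. Isolated library 1 was highest in both, with 13152 CPM of markers. In BLA, group-housed library 3 was lowest and isolated library 1 highest in both measures, with a different order between them. Across the regions the match broke: isolated BLA library 1 and group-housed BLA library 1 held 5469 and 4644 CPM of markers and 81.7 and 67.8 CPM of Hcn2, less marker RNA but more Hcn2 than group-housed VTA libraries 1 and 2. Per 1000 CPM of these markers, Hcn2 lay between 8.48 and 11.6 CPM in VTA and between 14.6 and 22.5 CPM in BLA.

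All 8 markers were called higher in VTA than in BLA, as were 24.1% of all genes tested. Their median log2 fold change was 1.22 against 0.02 over all genes tested. In the isolation comparison of VTA all 8 had a positive log2 fold change, with a median of 0.44 against -0.001 over all genes, and 0 were called. The part of these cells in the Hcn2 values was not tested.

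**Figure D3:**
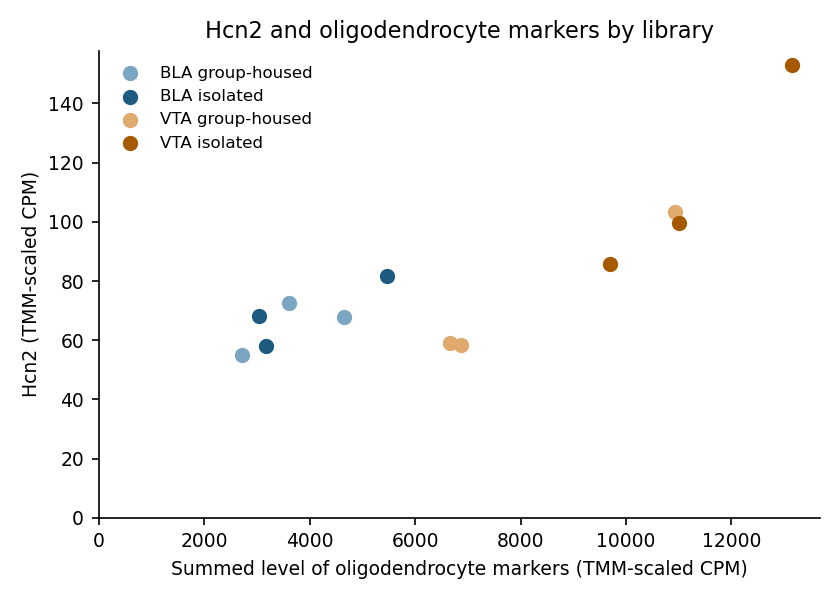
Hcn2 (vertical axis) against the summed level of 8 oligodendrocyte markers (horizontal axis), both in TMM-scaled CPM, with a point per library coloured by group. The 6 VTA libraries run from 6656 to 13152 CPM of markers and from 58.3 to 153 CPM of Hcn2, and the BLA libraries lie at lower marker levels.

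Markers of other cells that such punches could hold also differed between groups. The 8 dopamine neuron markers summed to between 826 and 1732 CPM in group-housed VTA, between 1137 and 1405 CPM in isolated VTA, and between 95.2 and 131 CPM in the BLA libraries, with none at 0 in any group. Of the 8 dopamine neuron markers, 7 were called higher and 1 lower in VTA than in BLA. Over all genes tested the shares were 24.1% and 23.7%. Within VTA the order of the dopamine marker sums was not that of Hcn3. Group-housed library 3 was highest in both, but group-housed library 2, the second highest in Hcn3 at 22.7 CPM, held 1091 CPM of markers, and isolated library 3, the lowest in Hcn3 at 16.3 CPM, held 1241 CPM. The 8 markers of thalamic neurons, cells in which Hcn2 and Hcn4 are known to be strong, summed to between 700.4 and 748 CPM in group-housed VTA, from 705 to 1015 CPM in isolated VTA, and from 178 to 287 CPM in BLA, with none at 0. Isolated VTA libraries 1 and 2 held the most, at 1015 and 995 CPM. These sums followed Hcn4 over the VTA libraries only in part. Group-housed library 3 held the least, at 700.4 CPM, with 15.7 CPM of Hcn4, as much as isolated library 2. In isolated library 3, group-housed libraries 1 and 2 and isolated libraries 2 and 1 the thalamic sums were 705, 721, 748, 995 and 1015 CPM. Hcn4 lay there at 12.1, 12.1, 13.05, 15.7 and 14.6 CPM. The dopamine neuron sums also followed Hcn4 in part. In group-housed libraries 1 and 2, isolated libraries 1 and 2 and group-housed library 3 they were 826, 1091, 1137, 1405 and 1732 CPM. Hcn4 lay there at 12.1, 13.05, 14.6, 15.7 and 15.7 CPM. Isolated library 3 stood apart, with 1241 CPM of dopamine markers and the lowest Hcn4 in VTA, 12.1 CPM. Of the thalamic list 5 were called higher and 1 lower in VTA, with a median log2 fold change of 1.03.

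The 8 markers of cortical and basolateral glutamatergic neurons summed to between 771 and 1562 CPM in BLA, between 51.8 and 57.1 CPM in group-housed VTA, and to 99.0, 67.9 and 435 CPM in isolated VTA libraries 1, 2 and 3. Every isolated VTA library was above every group-housed one, and all 8 markers had a positive log2 fold change in that comparison, with a median of 1.83 and 0 called. Markers of striatal projection neurons summed to between 379 and 1451 CPM in BLA, between 54.8 and 81.0 CPM in group-housed VTA and between 66.5 and 305 CPM in isolated VTA, where 6 of 8 had a positive log2 fold change (median 1.07, 0 called). Astrocyte markers summed to between 2850 and 3616 CPM in VTA and between 3893 and 4296 CPM in BLA, but 6 of the 8 were called higher and 2 lower in VTA, with a median log2 fold change of 0.76. Markers of GABA neurons summed to between 267 and 701 CPM in VTA and 778 to 1130 CPM in BLA, with isolated VTA library 2 the lowest. Of these 8 markers, 2 were called higher and 5 lower in VTA. Among all genes tested, 24.1% were called higher and 23.7% lower there. Markers of midbrain motor nuclei summed to at most 22.4 CPM in VTA, and Mnx1 was at 0 in both VTA groups. The part of any of these cells in the levels of the HCN genes, or in the isolation values of VTA, was not tested.

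Levels of different genes were compared only per length, as CPM divided by the kilobases of annotated exons (3.19 kb for Hcn2, 4.15 kb for Hcn3 and 6.12 kb for Hcn4). On that scale Hcn2 lay at 21.03 ± 3.03 in BLA and 29.2 ± 11.0 in VTA, Hcn3 at 3.02 ± 0.139 and 4.89 ± 0.846, and Hcn4 at 1.61 ± 0.244 and 2.27 ± 0.273 CPM per kb (SD, n = 6 libraries each). The order Hcn2, Hcn3, Hcn4 held in every library, and Hcn3 exceeded Hcn4 between 1.61 and 2.57 times. The sum of the 3 ranged from 22.2 to 29.6 CPM per kb in BLA and from 24.4 to 54.9 CPM per kb in VTA.

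Hcn2 made up 81.7% ± 3.05 of that sum in BLA and 79.0% ± 5.95 in VTA (SD, n = 6 libraries each). Hcn3 made up 11.9% ± 1.82 and 14.4% ± 4.47, and Hcn4 6.37% ± 1.39 and 6.62% ± 1.58. None of the shares was shown to differ between the regions, at exact permutation p = 0.335, 0.245 and 0.755 (two-sided, 6 libraries against 6) and adjusted p = 0.503, 0.503 and 0.755 over the 3 members. Within VTA the Hcn3 share was 16.9%, 21.01% and 15.1% in group-housed libraries 1, 2 and 3 and 8.49%, 14.5% and 10.6% in isolated ones. Those groups did not overlap, but 3 libraries against 3 cannot give an exact two-sided p under 0.1. The level of Hcn3 itself did overlap between them. A share of Hcn3 also falls where Hcn2 is high, as in isolated library 1 at 153 CPM of Hcn2. For levels, 11.6% of tested genes were free of overlap in this comparison with isolated libraries lower. The Hcn2 share overlapped, from 70.8% to 78.7% in group-housed and from 78.1% to 87.2% in isolated VTA.

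**Figure D4:**
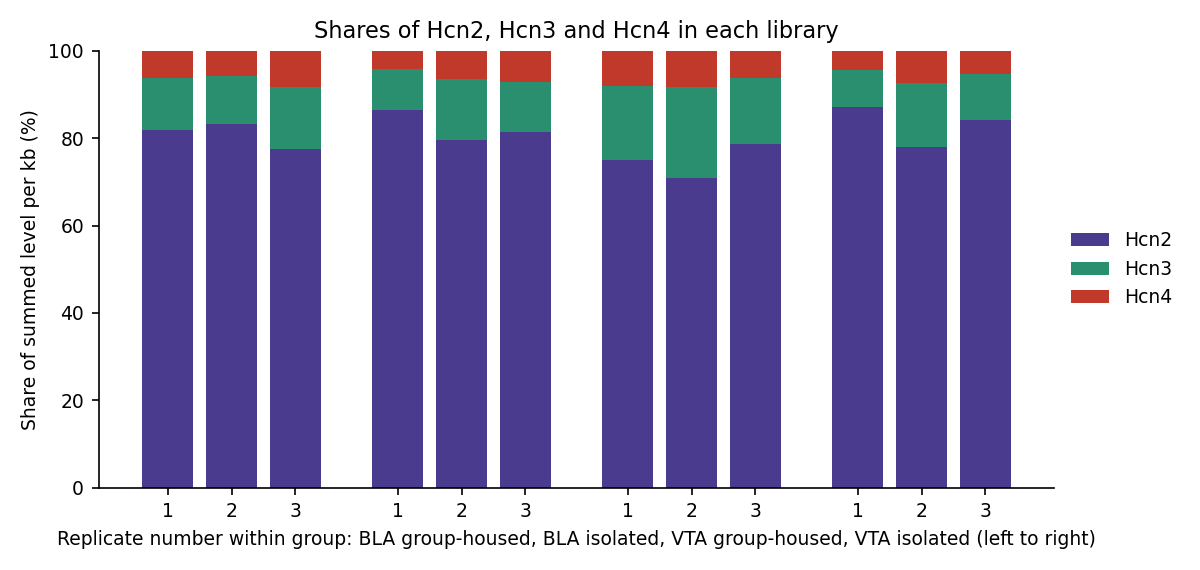
Share of Hcn2, Hcn3 and Hcn4 (vertical axis, percent) in their summed level per kilobase of exon, with a stacked bar per library and groups in the order BLA group-housed, BLA isolated, VTA group-housed, VTA isolated. Hcn2 makes up between 70.8% and 87.2% of every bar, and the Hcn3 band is broader in the group-housed than in the isolated VTA libraries. The level of Hcn3 in CPM overlapped between those VTA groups.

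The profile of each gene over the 12 libraries was compared with those of the 16656 other genes at a mean of 1 CPM or more. The measure was the root mean square difference of log2 CPM after each gene was centred on its mean. Closest to Hcn3 were the linker histone gene Hist1h1e (0.11), Ggact (0.11) and the adhesion receptor gene Adgre5 (0.12). Closest to Hcn4 were Rgs3, a regulator of G protein signalling (0.12), the mitochondrial methyltransferase gene Nsun4 (0.12) and Sipa1l2 (0.13). Closest to Hcn2 were Ankrd29 (0.16), Paqr4 (0.18) and the choline transporter gene Slc44a1 (0.18). Among the members, Hcn3 and Hcn4 differed by 0.19, which placed Hcn4 at rank 277 for Hcn3 and Hcn3 at rank 242 for Hcn4. Hcn2 differed from Hcn3 by 0.44 and from Hcn4 by 0.40, near the medians over all genes of 0.46 for Hcn3 and 0.41 for Hcn4.

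Other genes that act on or beside HCN channels were taken from lists of partners, cAMP enzymes and channels. In the regions the lists went both ways, with more members lower than higher in VTA. Their counts stand beside shares of 24.1% called higher and 23.7% called lower over all genes tested. Of 11 partners and regulators tested, 4 were called higher and 5 lower in VTA, with a median log2 fold change of -0.15 against 0.02 over all genes. Nedd4l, a ubiquitin ligase that acts on membrane channels, lay at 59.7 ± 10.9 CPM in VTA and 194 ± 20.3 CPM in BLA (SD, n = 6 libraries each), a log2 fold change of -1.70 (SE 0.11; edgeR, Benjamini-Hochberg adjusted p = 3.8e-08). Lower in VTA as well were the scaffold genes Apba2 at -0.81 (SE 0.10) and Magi2 at -0.64 (SE 0.08). Mrvi1, which encodes the protein IRAG1, was higher at 1.51 (SE 0.21). Pex5l, which encodes the auxiliary subunit TRIP8b and is named for that role after its values were seen, was not called at 0.25 (SE 0.11; edgeR, Benjamini-Hochberg adjusted p = 0.0688).

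Among the enzymes that make cAMP, 3 of 10 adenylyl cyclases were called higher in VTA and 5 lower, with a median of -0.17. Over all genes tested the shares were 24.1% and 23.7%. Adcy7 lay at 36.5 ± 4.83 CPM in VTA and 10.5 ± 1.21 CPM in BLA, and Adcy1, the calmodulin-activated cyclase, at 185 ± 104 and 676 ± 46.4 CPM (SD, n = 6 libraries each). Adcy5, the cyclase abundant in striatal neurons, had a log2 fold change of -1.59 (SE 0.22). Among the enzymes that break cAMP down, 3 of 16 phosphodiesterases were called higher and 9 lower, with a median of -0.30. Pde2a had a log2 fold change of -2.35 (SE 0.22), Pde8b of -0.91 (SE 0.09) and Pde4a of -0.89 (SE 0.09).

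Of 13 tested channel genes with a related cyclic nucleotide-binding fold, 4 were called higher and 6 lower in VTA, with a median of -0.60. Over all genes tested the shares were 24.1% and 23.7%. Kcnh1, a voltage-gated potassium channel of the ether-a-go-go family, lay at 35.9 ± 9.32 CPM in VTA and 137 ± 3.77 CPM in BLA. Kcnh2, the ERG potassium channel, lay the other way, at 49.3 ± 6.72 and 25.4 ± 2.18 CPM (SD, n = 6 libraries each). Cngb1, a subunit of cyclic nucleotide-gated channels, had a log2 fold change of 4.31 (SE 0.35). It rested on a BLA level near the floor, 0.317 ± 0.14 CPM, against 7.125 ± 3.863 CPM in VTA (SD, n = 6 libraries each). Of 23 other channels of subthreshold currents and pacemaking, 3 were called higher and 14 lower, with a median of -0.42. Of these, Kcnq5, a subunit of M-current channels, lay at -1.73 (SE 0.13), the leak channel gene Kcnk2 at -1.16 (SE 0.09) and Cacna1d, an L-type calcium channel that takes part in pacemaking, at -0.79 (SE 0.07). The members' own values in this contrast, 0.44 to 0.69, thus stood on the other side of 0 from the medians of all 5 lists. Hcn2, at 0.44, was not called, and every list also held genes called higher in VTA.

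**Figure D5:**
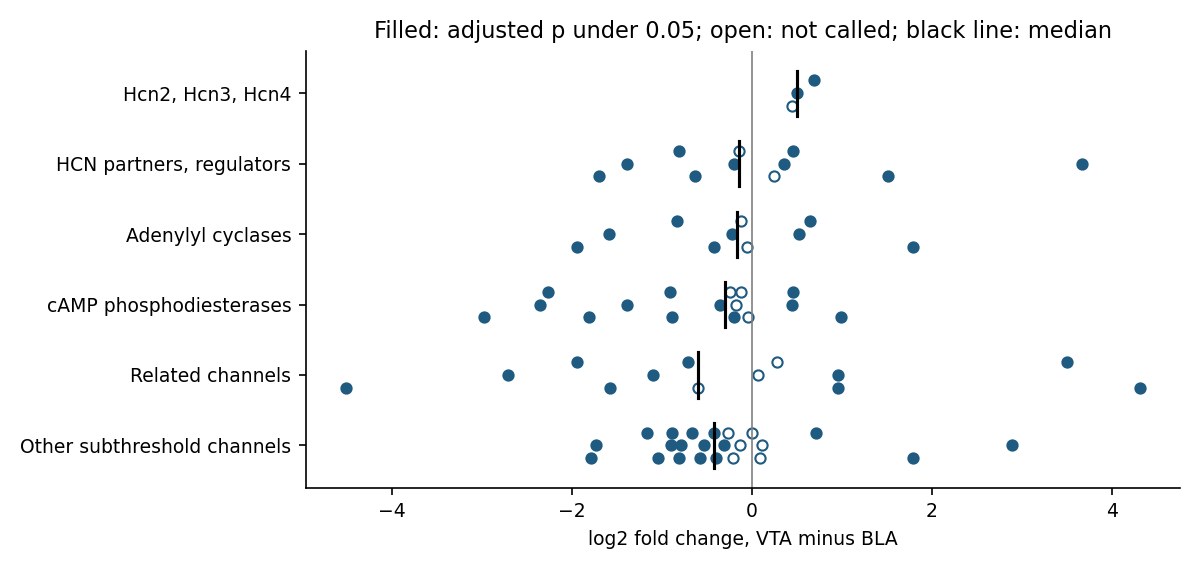
Log2 fold changes of VTA minus BLA (horizontal axis) for the 3 members and the genes of 5 lists, with filled points for an adjusted p under 0.05 (edgeR), open points for genes not called and a black line at each median. The members lie between 0.44 and 0.69, while the medians of the lists lie between -0.60 and -0.15.

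In the isolation comparisons none of the genes of these lists was called in either region. In BLA the list medians lay between -0.04 and 0.09, against 0.003 over all genes tested. In VTA they ran from -0.04 for adenylyl cyclases to 0.15 for partners and regulators, against -0.001 over all genes. Flna, the actin-binding filamin A and a binding partner of HCN channels, lay at 108 ± 7.56 CPM in isolated and 147 ± 17.8 CPM in group-housed VTA (SD, n = 3 libraries each), a log2 fold change of -0.50 (SE 0.11; edgeR, Benjamini-Hochberg adjusted p = 0.236). Kcnh7, an ERG-type potassium channel, lay at 84.2 ± 8.05 against 63.8 ± 4.47 CPM, and Kcnj3, a subunit of G protein-gated potassium channels, at 61.9 ± 5.34 against 49.8 ± 1.61 CPM, both with an edgeR, Benjamini-Hochberg adjusted p = 0.236. Kcnh7 and Kcnj3 were also lower in VTA than in BLA, at -1.10 (SE 0.13) and -1.04 (SE 0.11), and the cortical glutamatergic markers given above had a median of 1.83 in the same isolation comparison; their part in these values was not tested. In BLA, Lrmp, a binding partner of the HCN4 subunit, lay at 2.94 ± 0.824 CPM in isolated and 1.90 ± 0.749 CPM in group-housed libraries, with groups that overlapped.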

How the data were processed

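The authors deposited raw counts of reads per gene. Cutadapt, TopHat2, HTSeq and the mm10 build are listed in the submitters' processing notes, with no version or order. The punches were lysed in Trizol, and a stranded kit with ribosomal RNA depletion was used on the total RNA, per the labels' protocols. The strand setting is not given in the sources used here. The per-sample tables were used, whose member rows equal those of the table of the whole series.

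Low genes were removed with filterByExpr at a count of 10 and a total of 15, and TMM factors were applied. The robust quasi-likelihood test of edgeR 4.0.16 (R 4.3.3) was run within each region on 6 libraries, and on all 12 for VTA minus BLA and the difference of the responses. P-values were adjusted by Benjamini-Hochberg over every gene of the fit, and an adjusted p under 0.05 was a call. A positive log2 fold change means isolated above group-housed, or VTA above BLA. Shares were tested by exact permutation (scipy 1.17.1). Scripts were tested on simulated data. Figures were drawn with matplotlib 3.10.9.

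The members and lists were chosen with earlier results of these data known. By the rule for named genes, lists gave up to 4 genes by smallest p for VTA minus BLA and up to 2 for each isolation comparison, at a mean of at least 1 CPM, and 3 genes per member by pattern. Not every gene selected in this way is reported here, and for each list a part of the others is named. Alternatives were DESeq2 1.42.0, RLE factors, no filter, removal of the ribosomal RNA loci, a replicate block, a fit of all 12 libraries, other subsets of libraries and another gene length.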

Additional observations from a re-analysis of the deposited data

How the results depend on the processing

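Hcn3 and Hcn4 stayed higher in VTA and called in all 20 alternatives. Hcn2 in VTA minus BLA was called by DESeq2 alone (log2 fold change 0.44, adjusted p = 0.0267). The near-zero isolation response of Hcn4 in VTA changed sign to 0.008 with DESeq2, 0.008 with RLE factors, 0.053 in a fit of all 12 libraries and 0.179 without isolated libraries 1 and 3. Leaving out each library gave -0.10 to 0.11 for that response, -0.041 to 0.210 for Hcn2 and -0.059 to 0.029 for Hcn3 in BLA, and -0.20 to 0.71 percentage points for the Hcn4 share (0.25 with all libraries), none of them called. The cause was not tested. The longest transcript in place of all exons changed no call of a share.

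Genes called in BLA numbered 0 in the edgeR fit, 6 with DESeq2, 8 without a filter, 1 without the ribosomal RNA-rich libraries and 0 to 4 without single libraries, the 4 without isolated library 2. In VTA they numbered 1, and 415 with DESeq2, 17 without a filter, 0 without isolated libraries 1 and 3, and 0 to 1200 without single libraries. The 1200 came without isolated VTA library 2, as did 487 calls for the difference of the responses, which ran from 0 to 487 without single libraries and numbered 132 with DESeq2 and 1 without a filter. For VTA minus BLA, 7258 genes were called among isolated libraries alone against 11938, and adenylyl cyclases numbered 4 against 8.

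Whether libraries with the same number within a region were paired is not known. Deviations of such libraries from their group means correlated between -0.284 and 0.405, and those of other numbers between -0.257 and 0.434. These values cannot decide it with 3 libraries per group, and the main fits assumed no pairing. With a replicate block, genes called numbered 0 in VTA and 1 for the difference, and no call of a member changed (Hcn3 in VTA minus BLA 0.69).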
